A study of Mus musculus with 4 samples.

Results

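The miR-29 family of the mouse was followed through 4 small RNA libraries of macrophages, as the rows named mmu-miR-29a-3p, mmu-miR-29b-3p and mmu-miR-29c-3p (written below without the mouse prefix), which are 3 of the 847 rows counted. The rows were taken by name, not by their values. The macrophages came from C57BL/6J mice of 6 to 8 weeks and were sorted from spleen or bone marrow (BM). The AML spleen and AML BM libraries were taken 18 days after unirradiated mice received MLL-AF9 leukaemia cells marked by GFP, and the normal spleen and normal BM libraries are labelled normal. MLL-AF9 is a fusion oncogene that drives acute myeloid leukaemia (AML), and recipients are stated to survive 35 to 40 days. Each group is 1 library, so every difference below is one between single libraries, with no replicate to check it. The sources used here do not give the sort markers or say whether animals were pooled.

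MicroRNAs (miRNAs) are short RNAs that guide Argonaute proteins to messenger RNAs, mainly through pairing of the seed, bases 2 to 8 counted from the 5′ end. The miR-29 family is best known for repressing collagens and other matrix proteins, the DNA methyltransferases DNMT3A and DNMT3B, TET enzymes and the survival protein MCL1. In human AML, miR-29b has been described as a tumour suppressor, and in mouse lymphocytes the family restrains interferon-gamma production. Its members are processed from paired hairpins, so that each primary transcript carries a miR-29b copy together with miR-29a or miR-29c.

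The mature sequences are shown because the rows to be compared differ by few bases. They are the RefSeq entries on GRCm38.p6, matched by name for 3 of 3 members, with the seed in capitals.
miR-29a-3p: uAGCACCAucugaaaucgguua
miR-29b-3p: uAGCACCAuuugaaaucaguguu
miR-29c-3p: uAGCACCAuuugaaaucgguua
All share the seed AGCACCA, which no other of the 1679 mature mouse names in the RefSeq table has (3 names, 0.179%). Counted from the 5′ end, miR-29c-3p differs from miR-29a-3p by the single substitution C10U. Relative to miR-29a-3p, miR-29b-3p carries C10U, G18A, U21G and A22U and is 23 bases long, against 22 for the others. The first 17 bases of miR-29b-3p and miR-29c-3p are the same, and miR-29a-3p shares its first 9 bases with both. How reads with a mismatch or a lost end were assigned is not stated by the sources used here, so the split of reads between these rows is uncertain to that extent, above all for miR-29c-3p beside the far more abundant miR-29a-3p. The last 6 bases of miR-29b-3p, AGUGUU, are known in human cells as a signal for nuclear import of this miRNA. Of the 1679 names, 2 end in these letters (0.119%), the other being miR-92b-5p.

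The 4 hairpins are shown with the counted 3p arm in capitals, since they explain why miR-29b-3p cannot be traced to a single gene.
Mir29a: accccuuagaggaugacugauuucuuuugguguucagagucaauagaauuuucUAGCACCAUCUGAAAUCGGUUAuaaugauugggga
Mir29b-1: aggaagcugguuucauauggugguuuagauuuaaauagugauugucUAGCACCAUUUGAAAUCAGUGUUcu
Mir29b-2: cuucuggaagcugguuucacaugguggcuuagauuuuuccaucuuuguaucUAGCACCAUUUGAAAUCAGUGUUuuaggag
Mir29c: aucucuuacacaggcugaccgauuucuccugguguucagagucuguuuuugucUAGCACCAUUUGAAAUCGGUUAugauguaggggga
Mir29a (chr6:31062660-31062747, minus strand) and Mir29b-1 (chr6:31063023-31063093, minus strand) lie 275 bases apart. Mir29b-2 (chr1:195037040-195037120, plus strand) and Mir29c (chr1:195037547-195037634, plus strand) lie 426 bases apart. In GENCODE M21 the chromosome 1 pair lies inside an exon of a retained-intron transcript of the noncoding gene A330023F24Rik on the same strand, and on the opposite strand inside an exon of the protein-coding gene Cd46. Mir29b-1 overlaps the 3′ end of the long noncoding RNA gene Gm27019 by 2 bases. Both miR-29b hairpins give the same mature 3p sequence, so its row sums the output of chromosomes 1 and 6.

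The libraries held between 180227 and 435492 counts, with 505 to 680 rows detected. Levels below are counts per 1000000 reads (CPM) after scaling of library sizes by TMM, with 95% exact Poisson intervals in brackets, and ratios are log2 values, each with its 95% exact conditional interval. These intervals cover counting error only. A miRNA was called higher or lower where the ratio was at least 2-fold, the interval left out equality and the larger count was at least 30. The labelled cell type could be checked against few myeloid or pan-haematopoietic miRNAs. The myeloid miR-223-3p had 4 counts in AML spleen, 12 in AML BM, 28 in normal spleen and 10 in normal BM, so it was thinly covered in every library. The other arm, miR-223-5p, had 10, 149, 36 and 42 counts in the same libraries. The pan-haematopoietic miR-142a-3p was present in all, at 1311 CPM in AML spleen, 606 CPM in AML BM, 4346 CPM in normal spleen and 149 CPM in normal BM.

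Reads of the family were almost all miR-29a-3p, and its level was lower in both AML libraries than in the normal library of the same tissue. It had 523 counts in AML spleen, 748 in AML BM, 2049 in normal spleen and 755 in normal BM. After scaling, miR-29a-3p stood at 2711 CPM [2483 to 2953] in AML spleen and 2668 CPM [2480 to 2866] in AML BM, against 5226 CPM [5002 to 5457] in normal spleen and 3641 CPM [3386 to 3910] in normal BM. The AML libraries thus lay side by side below both normal libraries. By count it ranked 51 of 535 detected rows in AML spleen, 54 of 547 in AML BM, 34 of 680 in normal spleen and 47 of 505 in normal BM. In the order of its levels, normal spleen exceeded normal BM and normal BM exceeded AML spleen beyond counting error, while AML spleen and AML BM differed by a log2 ratio of 0.02 [-0.14 to 0.19].

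The rarer miR-29b-3p was ordered differently, with the lowest level in normal spleen and the highest in normal BM. Its counts were 26 in AML spleen, 57 in AML BM, 28 in normal spleen and 81 in normal BM. These gave 135 CPM [88.0 to 197] in AML spleen and 203 CPM [154 to 263] in AML BM, against 71.4 CPM [47.5 to 103] in normal spleen and 391 CPM [310 to 485] in normal BM. The AML libraries lay between the normal ones. The step between AML BM and AML spleen was within counting error, and those between AML BM and normal BM and between AML spleen and normal spleen were beyond it, the last only narrowly and not with DESeq2 size factors. By count miR-29b-3p ranked 177, 161, 207 and 114 in AML spleen, AML BM, normal spleen and normal BM.

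For miR-29c-3p the depth did not allow an order. It had 9 counts in AML spleen, 12 in AML BM, 19 in normal spleen and 9 in normal BM, or 46.6, 42.8, 48.5 and 43.4 CPM. Between its highest and lowest library the log2 ratio was 0.18 [-0.94 to 1.35], an interval that runs from 1.92-fold lower to 2.56-fold higher, so differences of that size were not detectable at this depth.

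**Figure D1:**
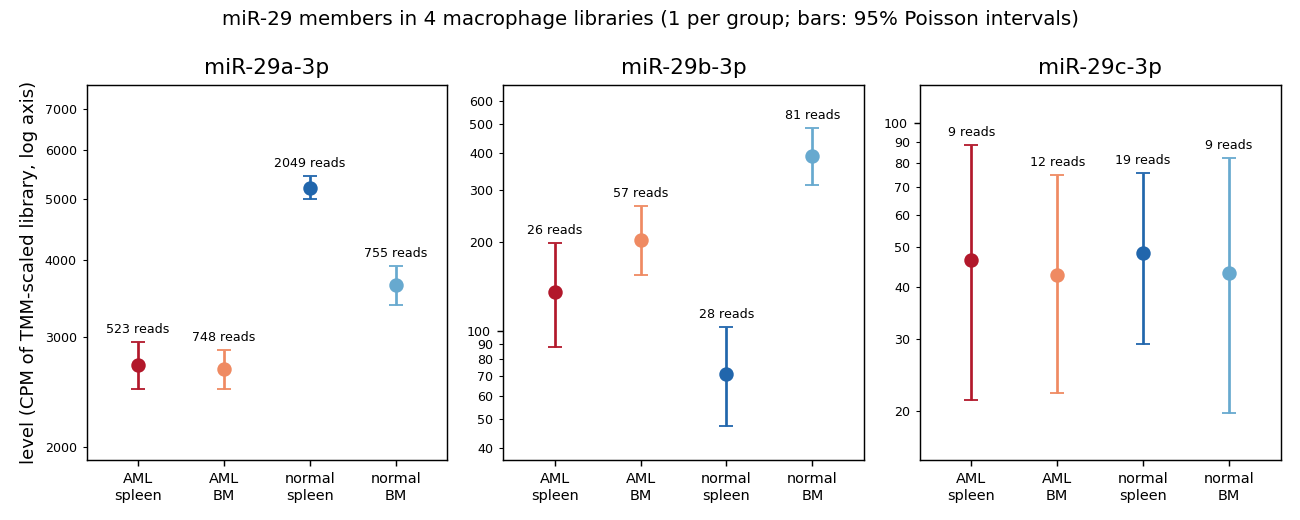
Level of each miR-29 member (CPM of the TMM-scaled library, log axis) in the 4 libraries, with read counts above the points and 95% exact Poisson intervals as bars. For miR-29a-3p both AML libraries, at 2711 and 2668 CPM, sit below the normal ones, for miR-29b-3p normal spleen is lowest at 71.4 CPM and normal BM highest at 391 CPM, and for miR-29c-3p all intervals overlap.

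The passenger arms of the hairpins were nearly absent. The row miR-29a-5p had 1 count in normal spleen and 0 in the other libraries. The rows miR-29b-1-5p, miR-29b-2-5p and miR-29c-5p had 6 counts each in normal spleen, the deepest library, and 0 each in normal BM. In AML spleen they had 2, 1 and 3 counts and in AML BM 1, 0 and 0. A count of 0 allows up to 3 counts as a one-sided limit, which is 15.5 CPM in AML spleen, 10.7 CPM for AML BM and 14.5 CPM for normal BM. No 5p row reached the 30 counts needed for a comparison. Both miR-29b-1-5p and miR-29b-2-5p had reads in both spleen libraries, in AML spleen only 2 and 1. How reads with a mismatch were assigned is not stated, so the output of each miR-29b gene there remains uncertain.

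In leukaemic BM no member reached the 2-fold threshold against normal BM. This comparison asks how macrophages in the leukaemic marrow differ from those at homeostasis. Of 216 miRNAs with enough counts, 55 (25.5%) were called, 29 (13.4%) higher and 26 (12%) lower in AML BM, with a median log2 ratio over all compared of 0.00. With 748 counts in AML BM and 755 in normal BM, miR-29a-3p had a log2 ratio of -0.45 [-0.60 to -0.30], and 28.2% of the miRNAs compared had a lower one. The log2 ratio of miR-29b-3p was -0.94 [-1.46 to -0.44], from 57 counts in AML BM and 81 in normal BM, close below 2-fold, and 13.9% had a lower one. Their intervals left out 0, and both ratios lay below the median of all miRNAs. For miR-29c-3p, with 12 and 9 counts, the ratio of -0.02 [-1.39 to 1.41] carried no direction. The 3 members together had 817 counts in AML BM against 845, for a summed log2 ratio of -0.48 [-0.62 to -0.34].

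In leukaemic spleen miR-29a-3p and miR-29b-3p lay on opposite sides of normal spleen, again without a call among the members. Of 216 miRNAs compared, 100 (46.3%) were called, 54 (25%) higher and 46 (21.3%) lower in AML spleen, and the median log2 ratio was -0.25. With 523 counts in AML spleen and 2049 in normal spleen, miR-29a-3p showed a log2 ratio of -0.95 [-1.09 to -0.81], which is 1.93-fold lower. With DESeq2 size factors this ratio was -1.19 and met the rule for a lower call. For miR-29b-3p, 26 counts in AML spleen and 28 in the deeper normal spleen library gave 0.92 [0.09 to 1.74], from fewer counts than the rule asks for. With DESeq2 size factors this was 0.68, with an interval that included 0. The abundant member was thus lower in the AML library beyond counting error, and the value of the rarer one lay above 0 by a margin that depended on the scaling. The ratio of miR-29c-3p was -0.05 [-1.38 to 1.16]. Together the members had 558 counts in AML spleen against 2096, for a summed log2 ratio of -0.89 [-1.02 to -0.75].

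The AML ratio of miR-29b-3p in spleen exceeded that in BM by 1.86 on the log2 scale [0.95 to 2.77]. For miR-29a-3p the spleen ratio lay below the BM ratio, with a difference of -0.50 [-0.70 to -0.30], which was -0.77 with DESeq2 size factors and -0.29 on total counts. For miR-29c-3p the difference was -0.03 [-1.73 to 1.66]. These intervals use a normal approximation to the counting error, and with 1 library per group the differences were not tested across animals.

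Between the 2 leukaemic libraries miR-29a-3p was nearly level, and no difference was resolved for the other members. Of 211 miRNAs compared in AML spleen against AML BM, 74 (35.1%) were called, 29 (13.7%) higher and 45 (21.3%) lower in AML spleen. None of the members was, although miR-29c-3p lacked the counts to be compared. The log2 ratios were 0.02 [-0.14 to 0.19] for miR-29a-3p, -0.59 [-1.32 to 0.10] for miR-29b-3p and 0.12 [-1.30 to 1.49] for miR-29c-3p. All these intervals included 0, and for miR-29a-3p it ran from 1.10-fold lower to 1.14-fold higher in AML spleen.

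The normal libraries of the 2 tissues differed most, and miR-29b-3p was the member called. Of 234 miRNAs compared in normal spleen against normal BM, 155 (66.2%) were called, 72 (30.8%) higher and 83 (35.5%) lower in normal spleen, so a call was the usual outcome here. With 28 counts in normal spleen and 81 in normal BM, miR-29b-3p was 5.47-fold lower in normal spleen (log2 ratio -2.45) [-3.13 to -1.82], and 20.1% of the miRNAs compared had a lower ratio. In the opposite direction, miR-29a-3p had 2049 counts in normal spleen and 755 in normal BM, which gave 0.52 [0.40 to 0.64]. For miR-29c-3p it was 0.16 [-1.05 to 1.49]. This comparison shares a library with each comparison of an AML library against a normal one, so their values are not independent of it.

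**Figure D2:**
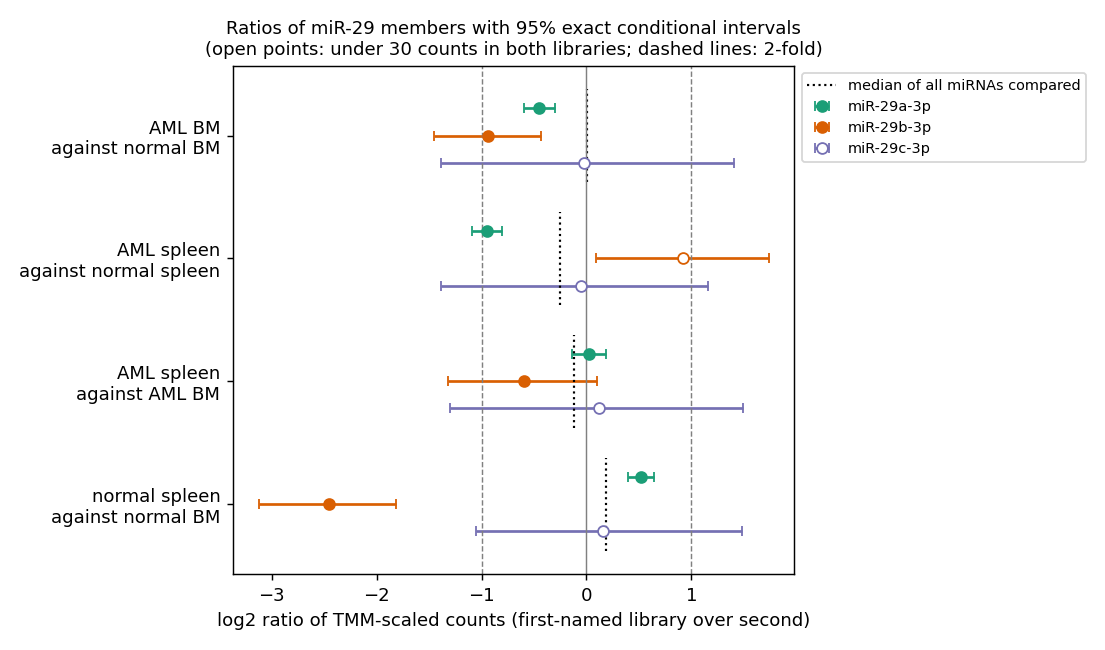
Log2 ratios of TMM-scaled counts for the 3 members in 4 comparisons, first-named library over the second, with 95% exact conditional intervals. Dashed lines mark 2-fold, dotted lines the median of all miRNAs compared, and open points have under 30 counts in both libraries. The only filled point beyond 2-fold is miR-29b-3p in normal spleen against normal BM, at -2.45.

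Since the members share each library's total, the balance between them does not depend on how libraries are scaled. The share of miR-29b-3p in the reads of the family was 4.66% (Clopper-Pearson 95% interval 3.07% to 6.75%) in AML spleen and 6.98% (5.33% to 8.95%) in AML BM. It was 1.34% (0.889% to 1.92%) in normal spleen and 9.59% (7.69% to 11.8%) in normal BM. Normal spleen stood apart below the other 3 libraries, with no overlap of intervals. There were 20.1 reads of miR-29a-3p for each of miR-29b-3p in AML spleen, 13.1 in AML BM, 73.2 in normal spleen and 9.32 in normal BM. The share of miR-29c-3p was 1.61% in AML spleen, 1.47% in AML BM, 0.906% in normal spleen and 1.07% in normal BM, with overlapping intervals.

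As odds of miR-29b-3p to miR-29a-3p, normal spleen was 7.84-fold lower than normal BM, a log2 odds ratio of -2.97 [-3.66 to -2.32]. AML spleen was 3.64-fold higher than normal spleen, at 1.86 [1.02 to 2.70]. AML BM against normal BM gave -0.49 [-1.03 to 0.04], and AML spleen against AML BM gave -0.62 [-1.36 to 0.10], both within counting error. The odds of miR-29c-3p to miR-29a-3p had intervals that included 0 in all 4 comparisons, the log2 odds ratio lying between -0.36 and 0.89.

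**Figure D3:**
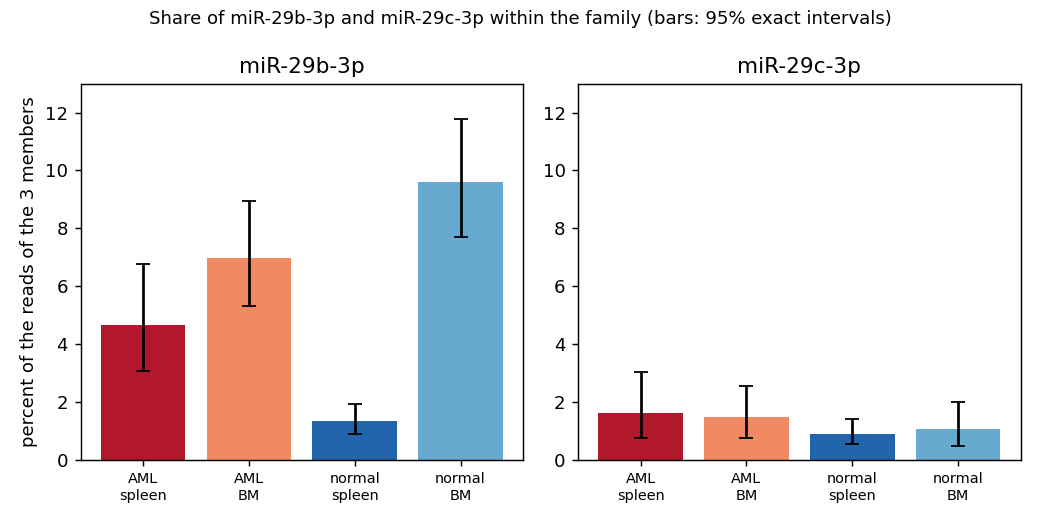
Percent of the reads of the 3 members that were miR-29b-3p or miR-29c-3p in each library, with 95% Clopper-Pearson intervals. The miR-29b-3p share is 1.34% in normal spleen and between 4.66% and 9.59% in the other libraries.

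An additive model over the 4 libraries, with AML and spleen effects, has 1 residual degree of freedom and counts it as noise if AML acts differently in spleen and BM. By edgeR's quasi-likelihood test with Benjamini-Hochberg adjustment, 0 of 246 miRNAs (0%) passed for the AML effect and 0 of 246 (0%) for the spleen effect. At an unadjusted p under 0.05 these counts were 0 and 15. DESeq2 called 0 and 8, none of them a miR-29 member, and limma 0 and 0. The AML log2 fold changes were -0.70 for miR-29a-3p and -0.04 for miR-29b-3p (edgeR adjusted p = 0.998 for both). The spleen log2 fold changes were 0.27 for miR-29a-3p (edgeR adjusted p = 0.935) and -1.52 for miR-29b-3p (edgeR adjusted p = 0.758). For miR-29c-3p counts were too low to be tested.

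The miRNAs with the profile closest to each member differed between members. Closeness was the root mean square difference of log2 levels, centred over the 4 libraries, among 143 miRNAs that reached 30 counts in each of the 4 libraries. Closest to miR-29a-3p were let-7a-5p (0.15), miR-200c-3p (0.16) and let-7b-5p (0.20), where the median over all candidates was 0.69. The let-7 miRNAs restrain proliferation and the miR-200 family is epithelial, but miR-200c-3p ran apart from its relatives: in normal spleen against normal BM its log2 ratio was 0.30, and those of miR-200a-3p and miR-200b-3p were -3.11 and -3.08. Closest to miR-29b-3p were miR-101b-3p (0.18), which represses the histone methyltransferase EZH2, the liver miRNA miR-122-5p (0.23) and miR-148b-3p (0.29), of a family that represses DNA methyltransferases, with a median of 0.95. The counts of miR-101b-3p were 117 in AML spleen, 304 in AML BM, 132 in normal spleen and 306 in normal BM. Those of miR-122-5p were 524, 857, 367 and 1424 in the same libraries. For miR-29c-3p they were miR-378a-3p (0.09), miR-23a-3p (0.09) and miR-26a-5p (0.10), with a median of 0.62, a likeness limited by the few counts of miR-29c-3p. With 4 points per profile these are descriptions only.

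**Figure D4:**
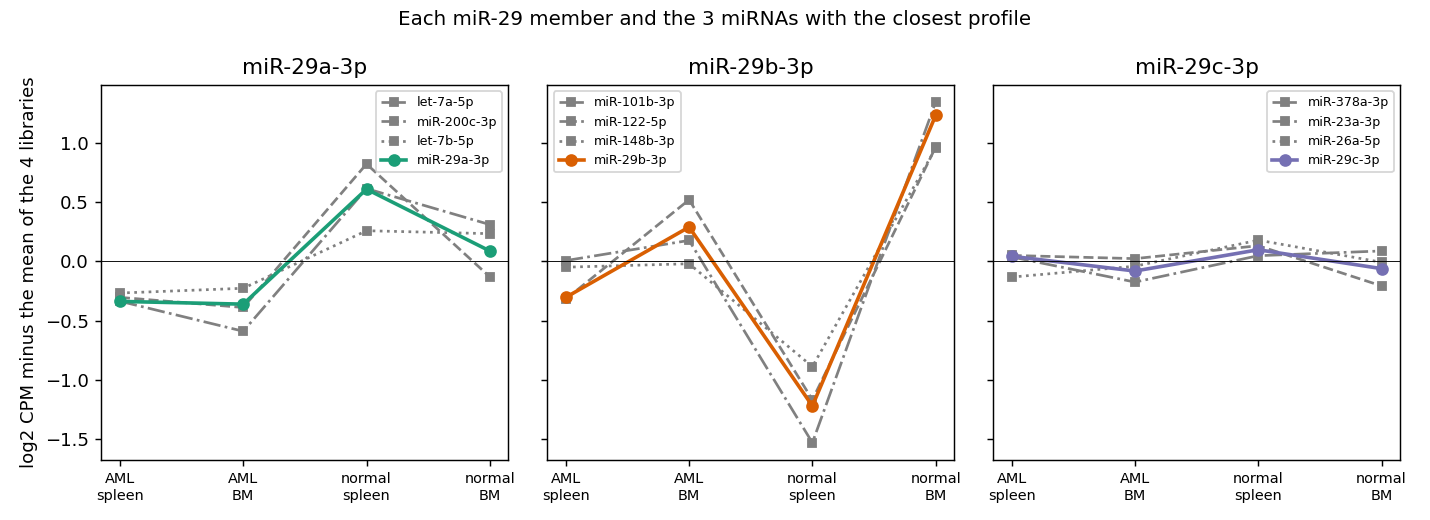
Log2 CPM of each miR-29 member minus its mean over the 4 libraries (coloured circles), with the 3 miRNAs of closest profile (grey squares). The profile of miR-29a-3p is highest in normal spleen, that of miR-29b-3p lowest in normal spleen and highest in normal BM, and that of miR-29c-3p rests on 9 to 19 counts, too few for an order. Lines join libraries of different groups only to guide the eye.

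Among miRNAs that, like miR-29, are known to repress enzymes of DNA or histone methylation, most were lower in normal spleen than in normal BM, as miR-29b-3p was. The far more abundant miR-29a-3p went the other way, at 0.52 there and -0.95 in AML spleen against normal spleen. All 10 members of this list were compared. In normal spleen against normal BM 7 were lower, 2 higher and 1 neither, with a median log2 ratio of -1.99 against 0.19 over all miRNAs, of which 35.5% were lower. In AML spleen against normal spleen 4 were higher, 1 lower and 5 neither, with a median of 0.86 against -0.25 over all miRNAs, of which 25% were higher. On total counts 7 were higher and 1 lower here, and the 2 higher calls of normal spleen against normal BM became 0. In AML BM against normal BM 0 of 10 were called, where 25.5% of all miRNAs compared were, with a median of -0.44 against 0.00. In AML spleen against AML BM 0 of 10 were called, where 35.1% of all were, with a median of -0.08 against -0.12. The abundant miR-26a-5p had a log2 ratio of 0.19 in normal spleen against normal BM, and miR-148a-3p, miR-143-3p and miR-101a-3p were lower at -1.14, -3.15 and -3.16. Of the list, miR-143-3p and miR-126a-3p (2 of 10) are also stromal or endothelial markers. Its miR-101b-3p and miR-148b-3p were picked above as closest in profile to miR-29b-3p, so their shared direction adds nothing separate. Being lower in normal spleen than in normal BM was not particular to this list. Most of the lists below shared that direction, and the lymphocyte list went the other way.

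Fibrosis is the setting in which miR-29 is best known as a brake on collagen, and other fibrosis-linked miRNAs were set beside it. The summed miR-29 members had log2 ratios of 0.39 in normal spleen against normal BM and -0.89 in AML spleen against normal spleen. Of 11 anti-fibrotic miRNAs, 10 were compared in each comparison. In normal spleen against normal BM 7 were lower and 0 higher (median log2 ratio -2.13), where 35.5% of all miRNAs compared were lower and their median was 0.19. In AML spleen against normal spleen 7 were higher and 0 lower (median 1.52), where 25% of all were higher and their median was -0.25. With DESeq2 size factors these were 6 and 1. In AML BM against normal BM 1 of 10 was lower (median -0.51), where 12% of all miRNAs compared were lower. In AML spleen against AML BM 1 of 10 was higher (median -0.20), where 13.7% of all were higher. Among the most abundant, miR-30a-5p, miR-200a-3p and miR-30e-5p had log2 ratios of 2.33, 2.42 and 1.44 in AML spleen against normal spleen, and miR-30d-5p one of -0.46. Of 7 pro-fibrotic miRNAs, 6 were lower in normal spleen against normal BM (median -2.77), and 5 of 5 compared were higher in AML spleen against normal spleen (median 1.83). In AML BM against normal BM 3 of 7 were lower (median -0.71), beside 12% of all miRNAs. In AML spleen against AML BM 1 of 5 was higher (median 0.31), beside 13.7% of all. In AML spleen against normal spleen miR-21a-5p, miR-192-5p, miR-145a-5p and miR-199a-5p stood at 1.44, 2.30, 2.51 and 1.83. Of these lists 4 of 11 and 4 of 7 members are also on the lists of muscle, liver and epithelial or of stromal markers used below, which are not complete.

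Markers of other cell types also differed between the libraries. Reads of 9 stromal and endothelial miRNAs made up 2.38% of AML spleen, 2.30% of AML BM, 0.330% of normal spleen and 3.23% of normal BM. Those of 10 muscle, liver and epithelial miRNAs made up 2.42%, 2.39%, 0.462% and 5.62% in the same libraries, and those of 6 blast and progenitor miRNAs 4.02%, 4.27%, 0.791% and 5.77%. These 3 lists had their lowest share in normal spleen and their highest in normal BM, as did miR-29b-3p. Within the blast and progenitor list miR-196b-5p ran apart, at 25.9, 699, 86.7 and 386 CPM in the same libraries. It was highest in AML BM and lowest in AML spleen. Reads of 6 lymphocyte miRNAs made up 4.97% of AML spleen, 4.45% of AML BM, 9.63% of normal spleen and 1.70% of normal BM, and those of 4 myeloid and pan-haematopoietic miRNAs 0.266%, 0.186%, 0.646% and 0.0726%. In summed share the last 2 lists peaked in normal spleen, as did miR-29a-3p. They were lowest in normal BM and higher in AML BM, whereas miR-29a-3p was lower in AML BM than in normal BM. Single members differed. Most reads of the lymphocyte list were miR-181a-5p, with 10240 of 12079 counts in AML BM and 2727 of 3518 in normal BM. In AML spleen it had 6378 of 8957 and in normal spleen 28642 of 41939. Against the summed share, miR-150-3p was highest in AML spleen, at 2493 CPM beside 1892 CPM in normal spleen. Of the lymphocyte list 2 of 6 were called higher in AML BM against normal BM, where 13.4% of all miRNAs compared were higher. These were miR-181a-5p (1.47) and miR-181b-5p (1.02). In that comparison miR-150-3p (-0.18) and miR-342-3p (-0.35) had ratios below 0, within counting error. The myeloid miR-223-5p stood at 51.8, 531, 91.8 and 203 CPM in the 4 libraries, highest in AML BM. The erythroid list summed to between 1.41% and 1.67%, but its members differed: in normal spleen against normal BM miR-451a was lower at -3.43, while the ratios of both miR-486a arms were 1.01 (5p) and 1.00 (3p). In normal spleen against normal BM, where 35.5% of all miRNAs compared were lower and 30.8% higher, 9 of 9 stromal and 9 of 10 muscle, liver and epithelial miRNAs were lower, 5 of 5 blast and progenitor miRNAs compared were lower, and 5 of 6 lymphocyte miRNAs were higher. In AML spleen against normal spleen, where 25% of all were higher and 21.3% lower, the stromal list was higher in 6 of 6 compared, and the lymphocyte list lower in 5 of 6. The blast and progenitor list was higher in 4 of 5 compared there, and its miR-196b-5p was lower, from 5 counts against 34. The muscle, liver and epithelial list was higher there in 7 of 8 compared, and 2 of 3 myeloid and pan-haematopoietic miRNAs compared were lower. In AML BM against normal BM 12% of all were lower and 13.4% higher. There the muscle, liver and epithelial list was lower in 6 of 10 and the stromal list in 3 of 9. Of 3 myeloid and pan-haematopoietic miRNAs compared, 2 were higher. No marker of these lists was at 0 in any library. The part of these cell types in the miR-29 values was not tested, and in bulk libraries fewer cells of a type cannot be told apart from less RNA per cell.

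**Figure D5:**
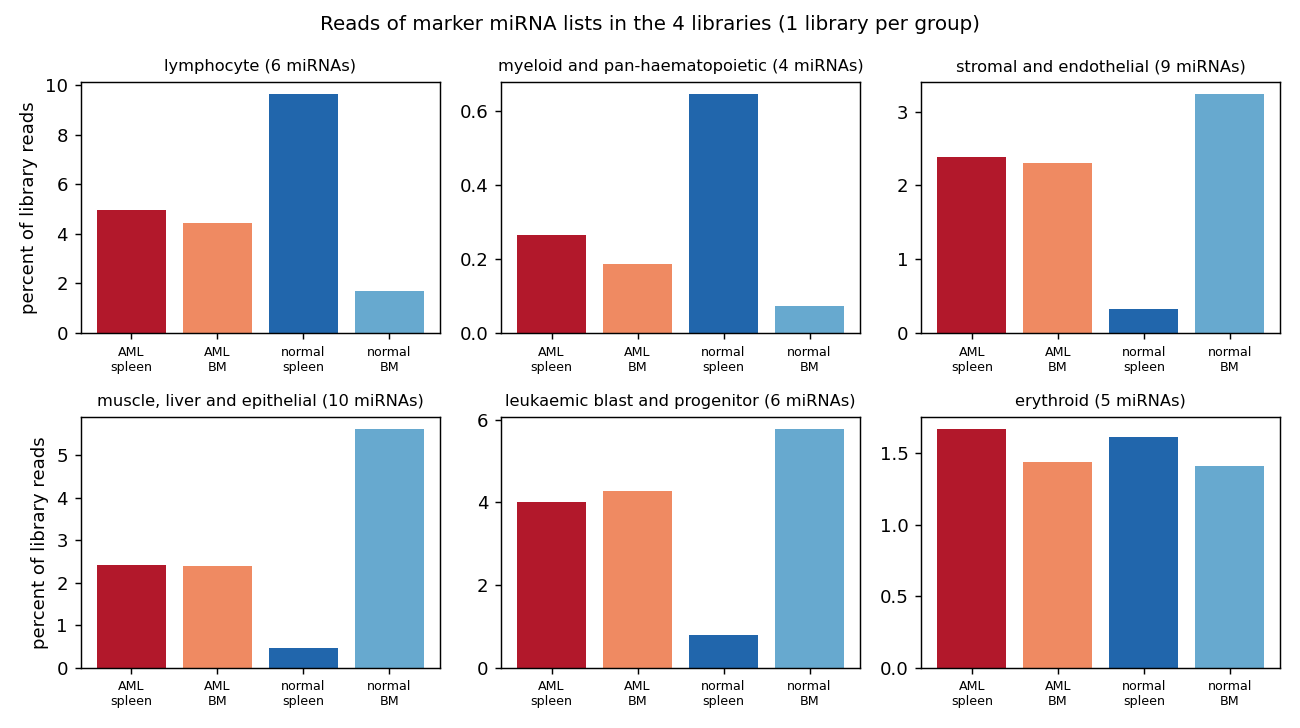
Percent of each library's reads that fell on 6 lists of marker miRNAs, 1 library per group and no error bars. Stromal, muscle and progenitor lists are lowest in normal spleen, and the lymphocyte and myeloid lists are highest there.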

How the data were processed

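The authors deposited, per the file headers, a table of read counts per miRNA for 4 libraries (847 rows) with TPM values. Each deposited TPM value equalled the count per 1000000 counts of its library, with no length term, and was used only for this check. Small RNA libraries were made from total RNA, per the labels' protocols. No aligner, counting tool, build or annotation is named by the sources used here. Groups came from the sample titles.

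Libraries were scaled by TMM (edgeR 4.0.16, R 4.3.3). Ratios have 95% exact conditional (Clopper-Pearson) intervals, and a count of 0 was entered as 3. Totals of 180227 to 435492 counts limit precision, and reads carry no molecular identifiers in the file, so intervals cover counting error only. The additive model used edgeR's quasi-likelihood test on miRNAs that reached 30 counts in any library, with DESeq2 1.42.0 and limma 3.58.1 (prior count 2) as alternatives. The intervals were checked on simulated Poisson counts, and the model on counts simulated with less dispersion than the 0.417 fitted here. These checks therefore do not cover the spread in these data. Other scalings and count minimums were tried. Named miRNAs were the 3 members, the other rows of their hairpins, the 3 closest profiles for each member and up to 4 of the most abundant members of a list. Some listed miRNAs are named further only as belonging to 2 lists, as a check of the cell type or as running apart from their list. These were chosen after their values were seen. The members and lists were chosen with earlier results of these data known.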

Additional observations from a re-analysis of the deposited data

Results flagged for a closer look

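The AML ratio of miR-29b-3p had opposite signs in the 2 tissues. It was 0.92 on the log2 scale in AML spleen against normal spleen and -0.94 in AML BM against normal BM, a difference of 1.86. Each rests on 1 library per group, the spleen ratio on 26 and 28 counts, and with DESeq2 size factors the spleen ratio was 0.68, with an interval that included 0. The difference was not tested across animals. It was positive under the other scalings, between 1.59 with DESeq2 size factors and 2.07 on total counts. Opposite signs were not particular to miR-29b-3p: miR-1a-3p stood at 2.41 in spleen and -1.74 in BM, and miR-122-5p at 1.54 and -1.17. How many of all miRNAs had opposite signs was not counted. Both ratios are taken against a normal library, and 66.2% of the miRNAs compared between the normal libraries were called.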

How the results depend on the processing

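Of 36 ratios of single members under the other scalings, 6 had another sign than with TMM, all of them from ratios within 0.1 of 0 on the log2 scale, and 1 had another call. That was miR-29a-3p in AML spleen against normal spleen, called lower at -1.19 with DESeq2 size factors. The call of miR-29b-3p in normal spleen against normal BM kept its direction, between -2.61 and -2.22. Summed members in AML spleen against normal spleen stood at -1.13 with DESeq2 size factors and -0.64 on total counts, which shift every ratio of that comparison by -0.24 and 0.25. In normal spleen against normal BM they stood at 0.63, 0.24 and 0.58 under DESeq2 scaling, total counts and totals that leave out the 10 most abundant miRNAs. The last put AML BM against normal BM at -0.29. The number of miRNAs compared changed with the count minimum, so the numbers called are given with it. In AML BM against normal BM 93 of 643 were called without a minimum and 24 of 131 with a minimum of 100 counts. The main run called 55 of 216 there. In AML spleen against normal spleen these were 158 of 754 and 64 of 142, beside 100 of 216. In AML spleen against AML BM they were 116 of 658 and 37 of 138, beside 74 of 211. In normal spleen against normal BM they were 222 of 755 and 96 of 150, beside 155 of 234. The split of 29 higher and 26 lower in AML BM against normal BM became 39 and 19 when totals left out the 10 most abundant. In AML spleen against normal spleen 54 and 46 became 51 and 68 under DESeq2 scaling, or 64 and 36 by total counts. In the additive model DESeq2 called 8 miRNAs for the spleen effect where edgeR called 0, and the AML effect of miR-29b-3p was 0.10 on total counts, against -0.04. The scaling was kept when the count minimum changed. The cause of the other changes beyond the shift in scale was not tested. No paired analysis was possible because each group has 1 library and the labels give no replicate numbers. Depth limits miR-29c-3p and the 5p rows throughout.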

Other observations

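Because miR-29a-3p and one source of miR-29b-3p lie 275 bases apart, the stability of their balance was set beside that of other neighbouring miRNAs, a measure chosen after the values were seen. There were 24 pairs of miRNAs from hairpins on the same strand within 1000 bases, each read at least 20 times per library. The log2 ratio of counts of miR-29a-3p to miR-29b-3p varied by 2.97 between its highest library, normal spleen, and its lowest, normal BM. This was the second widest range of the 24, after 4.11 for miR-15b-5p and miR-16-5p, and the median range was 1.27. The pair miR-99a-5p and let-7c-5p followed at 2.68, and miR-192-5p and miR-194-5p varied least, by 0.23. Some pairs share a member, and some rows, miR-29b-3p among them, also hold reads of a hairpin elsewhere in the genome.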
